A study of Mus musculus with 33 samples.

Results

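Striatal projection neurons, the inhibitory output cells of the striatum, were followed through 9 genes that mark them: Drd1, Drd2, Adora2a, Ppp1r1b, Rgs9, Pde10a, Gng7, Adcy5 and Rarb. The 9 genes were picked by symbol, and each matched 1 of the 54752 gene identifiers in the forebrain and hippocampus RNA tables and 1 of the 22523 in the footprint table. The study measured RNA in mouse forebrain, and RNA and ribosome footprints in hippocampus, with different amounts of n-Tr20, an arginine tRNA of neurons. All mice were 8 weeks old. The forebrain groups, of 4 mice each, were C57BL/6NJ mice with wild-type n-Tr20 (B6N), C57BL/6NJ mice that were n-Tr20 -/- (B6N knockout), C57BL/6J mice, whose strain carries a hypomorphic n-Tr20 (B6J), C57BL/6J mice with Tg(n-Tr20), a transgene of the B6N tRNA (B6J transgenic), and C57BL/6J mice that were n-Tr20 -/- (B6J knockout). Which sequences drive the transgene and how many lines it comes from is not known here. Hippocampus came from C57BL/6NJ mice with wild-type n-Tr20 and from n-Tr20 -/- mice, 3 samples per genotype and assay, although the column headers of the hippocampus RNA tables name B6JN. Nothing in the labels says whether RNA and footprints of 1 number came from the same mouse. The forebrain includes the striatum with cortex and other regions, and how far the dissection reached is not stated in the labels.

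Striatal projection neurons fall into a direct pathway, marked by the dopamine receptor gene Drd1, and an indirect pathway, marked by the dopamine receptor gene Drd2 and the adenosine receptor gene Adora2a. Drd1 and Adora2a receptors raise cAMP in these cells and Drd2 receptors lower it. Both cell types share a machinery that turns this signal into changes of excitability: a G protein with the gamma subunit Gng7, the adenylyl cyclase Adcy5, the cAMP target Ppp1r1b (DARPP-32), the phosphodiesterase Pde10a, which breaks cAMP and cGMP down, and Rgs9, which ends G protein signals. Rarb is a retinoic acid receptor needed for the development of the striatum.

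On build GRCm38 the receptor genes are Drd1 (ENSMUSG00000021478.6, chr13:54051183-54055658), Drd2 (ENSMUSG00000032259.8, chr9:49340360-49408177) and Adora2a (ENSMUSG00000020178.6, chr10:75316877-75334792). The genes of signal transduction are Gng7 (ENSMUSG00000048240.14, chr10:80948624-81014925), Adcy5 (ENSMUSG00000022840.9, chr16:35154494-35305743), Ppp1r1b (ENSMUSG00000061718.12, chr11:98348406-98357796), Pde10a (ENSMUSG00000023868.17, chr17:8525187-8986648) and Rgs9 (ENSMUSG00000020599.13, chr11:109225348-109298181). Rarb is ENSMUSG00000017491.9 at chr14:16430839-17082331. Ppp1r1b and Rgs9 share chromosome 11 and Adora2a and Gng7 share chromosome 10.

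A promoter is shown for the 3 of the 9 genes that passed the test for a higher level in B6J than in B6N forebrain. It lets a reader see the sequence at a transcript start of each. The RefSeq promoter table of GRCm38 held 7 of the 9 genes, and Adora2a and Ppp1r1b were not among them. Each sequence is the 250 bases before a RefSeq transcript start, 5′ to 3′ on the strand of the gene. For Drd1 the table held 2 starts, and the one at the gene's outer end is shown. The only Rarb start in the table lies inside the gene, far from its outer end, and the Drd2 window runs a little past the outer end of its gene. The positions are chr13:54055659-54055908 on the minus strand for Drd1, chr9:49340153-49340402 on the plus strand for Drd2 and chr14:16575477-16575726 on the minus strand for Rarb.
Drd1: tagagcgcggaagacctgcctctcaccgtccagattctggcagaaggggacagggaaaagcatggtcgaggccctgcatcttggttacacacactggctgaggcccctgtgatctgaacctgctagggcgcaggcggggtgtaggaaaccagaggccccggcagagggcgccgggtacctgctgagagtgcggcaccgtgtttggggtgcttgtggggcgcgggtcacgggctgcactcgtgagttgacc
Drd2: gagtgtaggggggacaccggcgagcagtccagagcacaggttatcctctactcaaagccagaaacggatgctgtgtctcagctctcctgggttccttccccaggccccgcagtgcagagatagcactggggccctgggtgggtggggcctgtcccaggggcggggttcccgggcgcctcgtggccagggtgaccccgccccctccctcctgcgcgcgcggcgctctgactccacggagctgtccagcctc
Rarb: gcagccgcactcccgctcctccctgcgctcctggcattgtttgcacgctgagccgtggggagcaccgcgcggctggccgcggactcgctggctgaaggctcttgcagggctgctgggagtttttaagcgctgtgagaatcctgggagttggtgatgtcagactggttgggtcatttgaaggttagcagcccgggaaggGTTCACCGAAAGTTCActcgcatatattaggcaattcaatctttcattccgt
The capitals in Rarb mark a direct repeat of the letters GTTCA with 6 bases between the copies (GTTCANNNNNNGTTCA, both strands searched), the form of a retinoic acid response element. It ran from base -52 to base -37 counted from that transcript start, overlapped none of the other motifs searched, and was found in 22 of 32851 promoters of this length (0.067%). The Drd2 promoter held the GC box GGGCGG once on each strand, at bases -93 to -88 and -56 to -51, a motif found in 32.742% of promoters. The Drd1 window shown held neither of these motifs, and the window of the other Drd1 start held the GC box once, at bases -133 to -128. GC content was 64.0% in Drd1, 68.8% in Drd2 and 58.0% in Rarb, beside a median of 52.4% over all promoters.

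Total counts ran from 14.7 M to 38.5 M (M, 1000000 counts) in the 21 forebrain libraries, from 35.8 M to 60.4 M in hippocampus RNA and from 7.6 M to 17.9 M in footprints, so that Rarb, which had the fewest forebrain counts of the 9 genes, still had at least 198 in each library. Levels are given as CPM, counts per 1000000 scaled by TMM within a tissue and assay. The titles number the forebrain batches 1 and 2 and do not say what a batch was. Transgenic number 4 had a library in each batch, taken here as the same mouse by its number. Its batch 1 library stands for it unless the repeat library is named. The libraries of all 4 B6J knockout mice were labelled batch 2. Sex was not labelled, and by Xist (335 to 369 CPM, beside at most 2.03 CPM in all other forebrain libraries) B6J knockout mice 1 to 3 were female. In bulk tissue, fewer cells of a type and less RNA per cell cannot be told apart, so a level below means RNA of a gene per total RNA of the piece of tissue.

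All 9 genes were detected in every forebrain mouse. On a scale that takes gene length into account (TPM, transcript copies in 1000000, deposited by the authors and summed per gene), the median level over 20 mice was 43.5 for Ppp1r1b and 35.9 for Pde10a. Adcy5 (14.5 TPM), Rgs9 (13.8), Drd1 (12.3) and Gng7 (11.6) followed, with ranges over mice that overlapped each other. Adora2a (6.52 TPM), Rarb (5.74) and Drd2 (3.59) had the lowest medians. The highest mouse was 1.4 times the lowest in CPM for Ppp1r1b and 2.06 times for Adora2a, with the other genes between these values. TPM sums depend on how reads were shared among transcripts: for Ppp1r1b, a retained intron transcript held a median of 44.6% of the counts, nearly as much as the main coding transcript (46.3%), and for Rarb 3 transcripts held 23.5% to 25.7% each.

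The labels name forebrain, and most of the 9 genes were at far lower levels in hippocampus. Its libraries were made with another kit, counted per gene and not per transcript, and scaled apart, so that the ratio was not tested. B6N forebrain was 15.7 times B6N hippocampus RNA for Adora2a, 13.3 times for Drd1, 7.07 times for Rarb and 6.2 times for Drd2. It was 4.12 times for Rgs9, 3.49 times for Ppp1r1b, 2.55 times for Pde10a and 1.41 times for Adcy5. Gng7 went the other way, with a ratio of 0.366 and a mean of 203 CPM over the hippocampus RNA libraries beside 74.5 CPM over forebrain mice. The receptors and Rarb had the highest ratios, and Gng7 and Adcy5 the lowest. A gene outside the 9, Pde2a, had medians of 302 CPM in forebrain and 4.5 CPM in hippocampus RNA. The part of kit and counting in the order of these ratios was not tested.

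The 9 genes moved up and down together from mouse to mouse within a group. Each level was taken as log2(CPM + 1) minus the mean of its group, which removes the differences between groups and batches. Over 20 mice, all 36 pairs of genes had a positive Pearson r, with a median of 0.77 (median Spearman rho 0.73), and 34 pairs had an adjusted p under 0.05 (35 by Spearman rho), by a permutation test that shuffled mice within groups with Benjamini-Hochberg adjustment over the 36 pairs. The highest r was 0.91, between Gng7 and Adcy5, the G protein subunit and the cyclase. The lowest was 0.41, between Drd1 and Adcy5 (adjusted p = 0.17 by the permutation test), and the other pair that did not pass was Drd1 with Ppp1r1b (0.5, adjusted p = 0.0644 by the permutation test). Without the 2 mice farthest from the median of the first gene of a pair, the median r was 0.66 and the lowest 0.42.

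**Figure D1:**
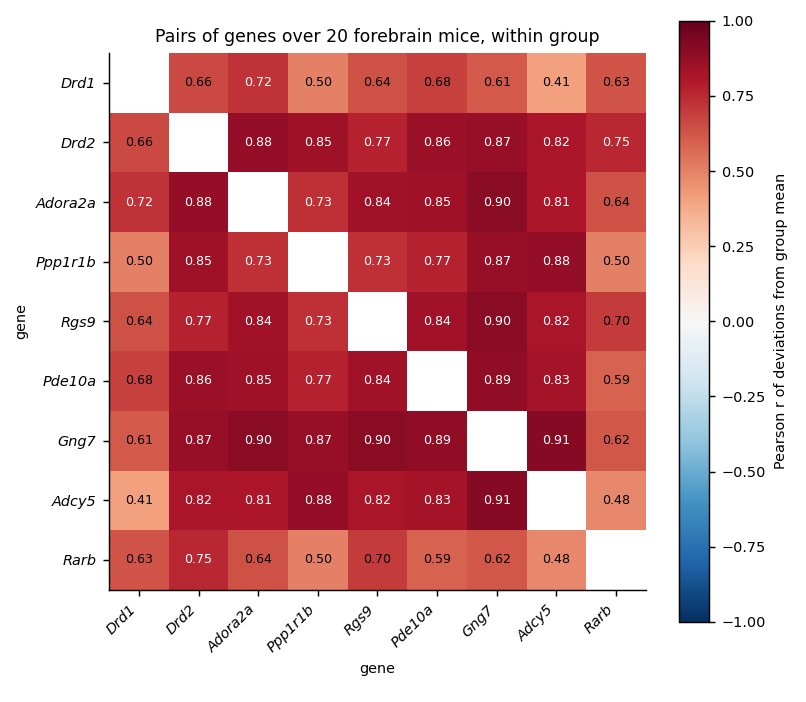
Pearson r of every pair of the 9 genes over 20 forebrain mice, on deviations from the group mean of log2(CPM + 1); the color and the printed value give r. All 36 values are positive, from 0.41 to 0.91, and the rows of Drd1 and Rarb are the palest.

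Gng7 had the highest median r and Rarb the lowest. The median r of a gene with the other 8 was 0.88 for Gng7, 0.84 for Pde10a, 0.82 for Adcy5, 0.79 for Rgs9 and 0.75 for Ppp1r1b. Among the receptors it was 0.84 for Drd2 and 0.82 for Adora2a, both of the indirect pathway, and 0.64 for Drd1. Rarb had 0.63. Whether these medians differ between genes was not tested.

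A few mice carried much of this covariation. All 9 genes were on the same side of their group mean in 9 of 20 mice. Transgenic mouse 3 had all 9 below, by a mean of -0.27 on the log2 scale, and B6J knockout mouse 2 had all 9 below, by a mean of -0.18. B6N mouse 3 (-0.1) and B6J mouse 2 (-0.07) also had all 9 below. Transgenic mouse 2 (0.17), B6J knockout mouse 1 (0.11), B6J mouse 4 (0.09), B6N knockout mouse 3 (0.07) and B6N mouse 2 (0.06) had all 9 above. The spread was not even over groups: B6N knockout mice stayed within -0.03 to 0.07, and transgenic mice ranged from -0.27 to 0.17.

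Leaving out transgenic mouse 3 and B6J knockout mouse 2 together, which was chosen after seeing the data, left a median r of 0.56, 35 of 36 pairs positive and 17 pairs with an adjusted p under 0.05 by the permutation test. Without transgenic mouse 3 alone, 28 pairs passed and the median r was 0.67. With the repeat library of transgenic mouse 4 in place of its first, 27 pairs passed. The sign of r was thus kept in nearly every pair, while the number of pairs that passed rested in part on these 2 mice.

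**Figure D2:**
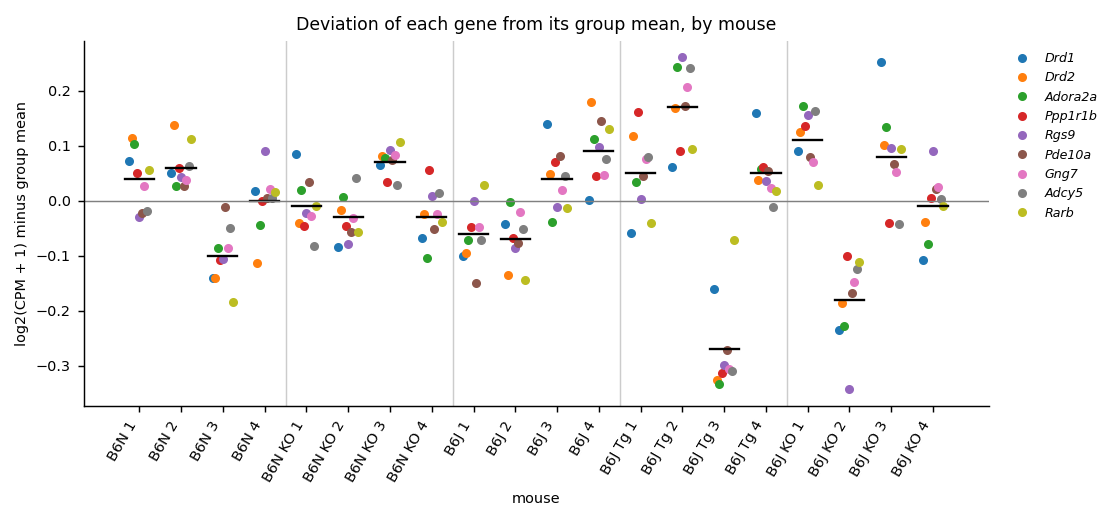
Deviation of each of the 9 genes (colored points) from its group mean in each of 20 forebrain mice, as log2(CPM + 1); black bars are the mean of the 9 genes. All points of B6J transgenic mouse 3 and of B6J knockout mouse 2 lie below 0, with means of -0.27 and -0.18, and all points of transgenic mouse 2 lie above 0, with a mean of 0.17.

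Markers of neighbouring regions were read in the same libraries, each list as the mean of its genes' log2 levels minus the mean of 20 mice. Transgenic mouse 3, the lowest of its group in the 9 genes (-0.2 on this scale), was the highest of all libraries in thalamus markers (0.68) and hypothalamus markers (0.83), and stood at 0.49 for olfactory bulb and -0.15 for cortical excitatory neurons. Transgenic mouse 4 was also high in thalamus (0.41) and hypothalamus markers (0.65), but at 0.12 in the 9 genes. The repeat library of that mouse gave 0.39 for thalamus, 0.59 for hypothalamus and 0.02 for the 9 genes, so thalamus and hypothalamus markers came out alike in both libraries. Other lists differed more between the first and the repeat library. Cortical excitatory neurons were at -0.1 and -0.26, hippocampus at 0.17 and -0.03, olfactory bulb at -0.04 and -0.18, and other projection neuron genes at 0.07 and -0.07. B6J knockout mouse 2 (-0.28 in the 9 genes) was at 0.25 in thalamus markers and -0.07 in hypothalamus markers. B6J knockout mouse 4 was at -0.11 in the 9 genes and 0.65 in thalamus markers. B6J mice 2, 3 and 4, at 0.11, 0.21 and 0.27 in the 9 genes, were at -0.43, -0.48 and -0.28 in thalamus markers. B6J mouse 1 and transgenic mouse 2 were high in both, at 0.11 and 0.24 in the 9 genes and 0.3 and 0.4 in thalamus markers, and B6N knockout mice 2 and 4 were low in both, at -0.09 and -0.08 and at -0.47 and -0.33.

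Summed over the list, the 8 thalamus markers took 218 to 392 CPM in transgenic mice and 216 to 316 CPM in B6N knockout mice. The 9 hypothalamus markers, mostly neuropeptides, were rare, with 3.48 to 25.3 CPM in transgenic mice and 5.27 to 8.07 CPM in B6J mice, where 1 of them was at 0 in every mouse. Over the 20 mice, the deviations of all 8 thalamus markers had a negative r with the mean of the 9 genes, from -0.48 to -0.19, given as a description. All 9 cortical markers had a positive r, from 0.05 to 0.35, and the median over 13235 genes of at least 5 CPM was 0. The part of the dissection in the covariation was not tested.

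**Figure D3:**
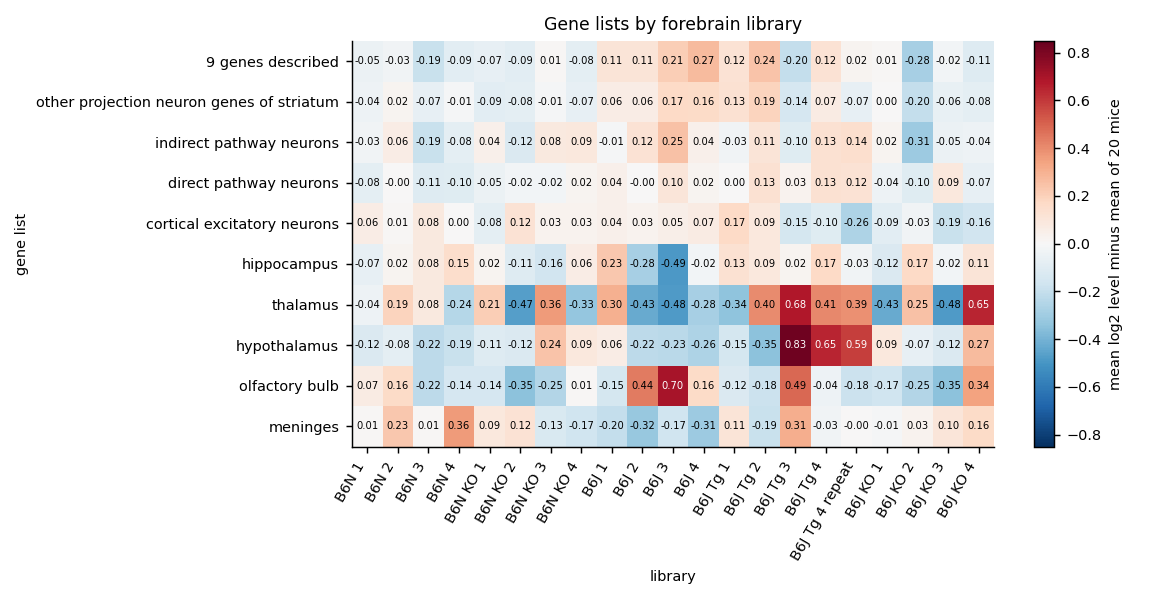
Mean log2(CPM + 1) of gene lists in each forebrain library, minus the mean of 20 mice (color and printed value); the repeat library of B6J transgenic mouse 4 is shown beside the first. The 9 genes and the list of other striatal projection neuron genes change sign together in most libraries, and transgenic mouse 3 combines -0.2 in the 9 genes with 0.68 in thalamus and 0.83 in hypothalamus markers.

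The 18 other projection neuron genes of the striatum followed the 9. Among 13235 genes of at least 5 CPM, the 10 most like them by Pearson r with the mean of the 9 standardised deviations over 20 mice included Scn4b (0.9), a sodium channel subunit, Pde1b (0.87), a calcium-dependent phosphodiesterase, Strn (0.84), which encodes striatin, Rasd2 (0.83), a small GTPase also called Rhes, Lrrc10b (0.83), Pitrm1 (0.81), a mitochondrial protease, Shb (0.8), Penk (0.8), the enkephalin precursor of indirect pathway neurons, and Cpne5 (0.79). Of the genes named, Scn4b, Pde1b, Rasd2 and Lrrc10b were on the list of 18 other projection neuron genes, and Penk was on the list of indirect pathway genes. All 18 other projection neuron genes had a positive r with the mean of the 9, of at least 0.54.

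Genes of each pathway were read in the same way, against a mean that itself holds 2 indirect pathway receptors and 1 direct pathway receptor. The 3 indirect pathway genes of at least 5 CPM had r of 0.7 (Gpr6, an orphan receptor), 0.77 (Gprin3) and 0.8 (Penk). Of the 6 direct pathway genes, the neuropeptide genes Tac1 (0.62) and Pdyn (0.52) followed the 9 genes, while Eya1 (0.03), Ebf1 (-0.05), the muscarinic receptor gene Chrm4 (-0.07) and Sfxn1 (-0.22) had r near or under 0. Within the list of dopamine and cAMP signalling, the genes with the highest r were Pde7b (0.75), Gnal (0.69), which encodes the G protein alpha subunit coupled to Drd1 and Adora2a receptors, and Pde2a (0.61), and the genes with the lowest were Cdk5 (-0.49) and Prkaca (-0.25), both kinases made in most neurons. Retinoid genes had a median r with the single members of -0.06, and Rara, a paralogue of Rarb, had -0.42. The difference between these lists was not tested.

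Between strains, the 9 genes were higher in B6J than in B6N forebrain, and 3 of them passed the test: Drd1, Drd2 and Rarb. Drd1 was at 45.5, 44.8, 39.1 and 43.8 CPM in the 4 B6N mice and at 49.9, 52.0, 59.1 and 53.6 CPM in the 4 B6J mice. Every B6J mouse was above every B6N mouse. The rise was 1.24-fold (log2 fold change 0.31 ± 0.07 SE, adjusted p = 0.0162 by the quasi-likelihood test of edgeR, adjusted by Benjamini-Hochberg over 25151 genes). Drd2 was at 17.5, 17.8, 14.5 and 14.8 CPM in B6N and at 21, 20.4, 23.3 and 25.6 CPM in B6J. The groups again did not overlap, and the rise of 1.4-fold (0.48 ± 0.1, adjusted p = 0.0129 by the same edgeR test) was the largest of the 9. Rarb was at 14.0, 14.6, 11.7 and 13.6 CPM in B6N and at 16.8, 14.8, 16.3 and 18.1 CPM in B6J, a rise of 1.23-fold (0.3 ± 0.08, adjusted p = 0.0345 by the same edgeR test).

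Those 3 of 9 stood beside 1.21% of all genes tested that rose in this comparison. The other 6 were also higher in B6J but did not pass. Pde10a was 1.27-fold higher (0.34 ± 0.08, adjusted p = 0.0617 by edgeR), Rgs9 1.22-fold, Adcy5 1.18-fold, Gng7 1.13-fold, and Ppp1r1b and Adora2a 1.12-fold each. In 8 of the 9 genes, all but Adora2a, the groups did not overlap, beside 5.27% of all genes tested. The median log2 fold change was 0.29 for the 9 genes and 0 for all genes tested.

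The calls of this comparison depended on the fit. Where the fit reported called 3 of the 9 and 434 of all genes, DESeq2 called 5 of the 9 (also Rgs9 and Pde10a) and 573 of all genes. EdgeR on just these 2 groups called 8 (all but Adora2a) and 990 of all genes. With 143 of all genes called, an offset for transcript length in edgeR ended the calls of Drd1 (adjusted p = 0.226) and Rarb (adjusted p = 0.309). The same offset called Pde10a (0.42 ± 0.09, adjusted p = 0.0329 by edgeR) and kept Drd2. All these fits used Benjamini-Hochberg adjustment in edgeR or DESeq2. Leaving out B6N mouse 3, B6N mouse 4 or B6J mouse 4 left none of the 9 called, and leaving out B6J mouse 3 left 1. Over the 8 such fits, log2 fold changes stayed between 0.23 and 0.54 for Drd1, Drd2 and Rarb. Of all genes, those fits called from 216 (without B6J mouse 4) to 426 (without B6J mouse 1), beside 434. Where a call ended in them, the adjusted p in edgeR was 0.0506 to 0.0593 for Drd1 and Drd2 and 0.054 to 0.176 for Rarb. Markers of other regions differed as well: all 7 hippocampus markers and 7 of 8 thalamus markers were lower in B6J than in B6N, with medians of -0.16 and -0.14 and none called, all 4 olfactory bulb markers tested were higher with a median of 0.67 and none called, and 2 of 5 meninges markers, Ogn and Dcn, fell. Their part in the result was not tested.

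**Figure D4:**
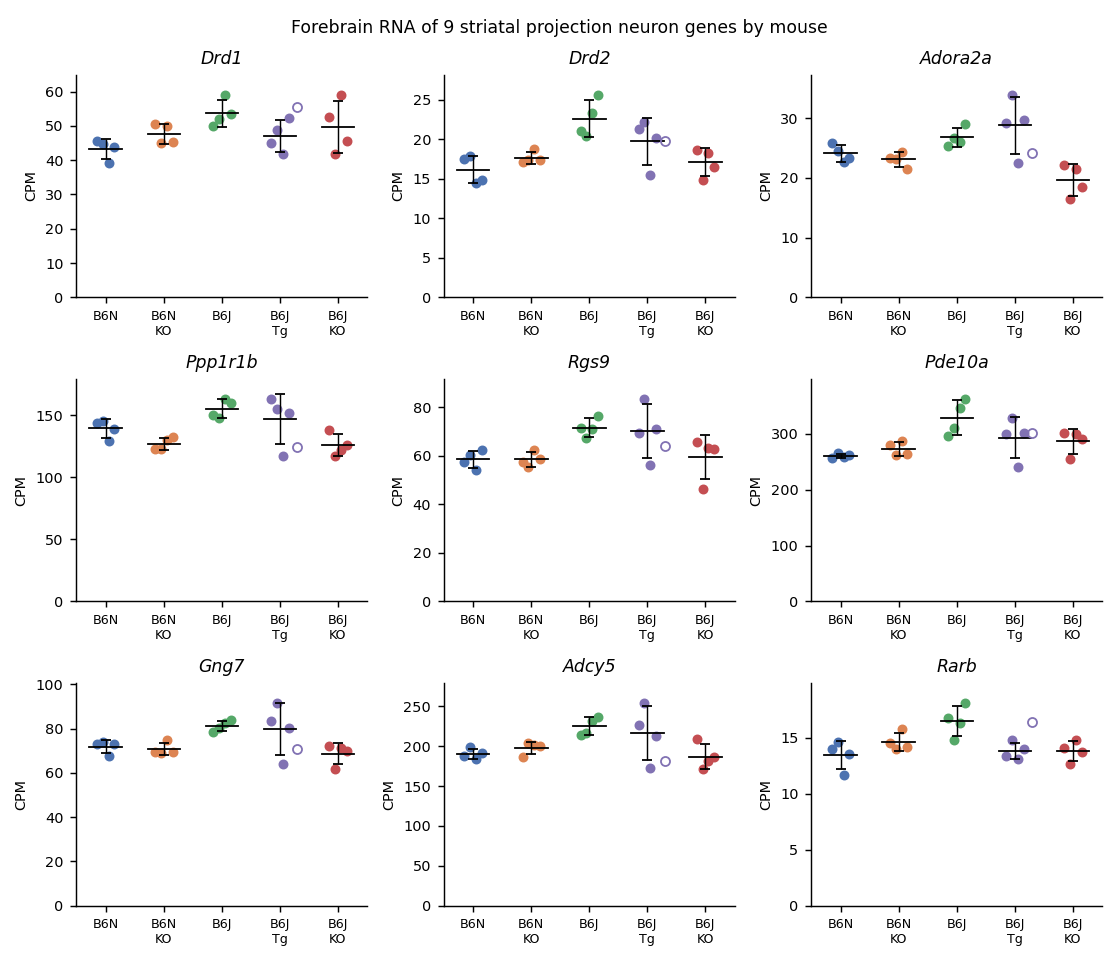
CPM of each of the 9 genes in forebrain by mouse (points), with the mean and SD of 4 mice (black bars), in B6N, B6N knockout (KO), B6J, B6J transgenic (Tg) and B6J knockout; the open circle is the repeat library of transgenic mouse 4. B6J mice lie above B6N mice in 8 of the 9 genes, and transgenic mice spread more widely than the other groups in Pde10a (241 to 328 CPM) and Adora2a (22.4 to 33.9 CPM).

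Genes from the lists beside the 9 changed in few cases. Of the 18 other projection neuron genes, all were higher in B6J than in B6N and 2 rose, Meis2 and Rxrg, both transcription factors (1.73% of all genes were called in either direction). Of 8 direct pathway genes, Tac1 rose 1.27-fold and Pdyn 1.25-fold, and of 4 indirect pathway genes none passed, with Penk 1.22-fold higher (adjusted p = 0.0825 by edgeR). Of 16 dopamine and cAMP signalling genes none passed and 14 were higher, with a median log2 fold change of 0.06. Of 13 retinoid genes 1 rose, Rara, the paralogue of Rarb (0.37 ± 0.09 on the log2 scale).

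Between B6J mice and B6J mice with the transgene, which compares low with restored n-Tr20 in 1 strain, none of the 9 genes passed the test. B6J minus transgenic was positive in 8 of the 9 genes with none called, where 0.25% of all genes were called. At an unadjusted p under 0.05, 2 of the 9 passed in edgeR, beside 2592 of 25151 genes, and DESeq2 called none of the 9. Rarb was at 13.4, 14.8, 13.1 and 14.0 CPM in transgenic mice, below every B6J mouse by a margin that for transgenic mouse 2 and B6J mouse 2 is lost in rounding (1 of the 9 genes without overlap, beside 2.57% of all genes), with a log2 difference of 0.26 ± 0.08 (adjusted p = 0.165 by edgeR). The repeat library of transgenic mouse 4, labelled batch 2, was at 16.4 CPM, within the B6J range. Drd1 was at 44.9, 48.9, 41.8 and 52.4 CPM, overlapping B6J, with 0.19 ± 0.07 (adjusted p = 0.274 by edgeR). Adora2a was the gene with a negative value, -0.1 ± 0.09. Of the lists, the retinoic acid degrading enzyme gene Cyp26b1 rose in B6J over transgenic mice (0.55 ± 0.12, 7.06 beside 4.77 CPM). It was at 6.91 CPM in B6N mice, and transgenic minus B6N was called lower as well (-0.52 ± 0.12, adjusted p = 0.0401 by edgeR).

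Transgenic mice were also compared with B6N mice, which are the same 4 B6N mice as in the comparison with B6J. All 9 genes were higher in transgenic mice, with a median log2 fold change of 0.17, and none was called where 0.366% of all genes were. An unadjusted p under 0.05 in edgeR was found for 3 of the 9, beside 2230 of 25151 genes, and DESeq2 called none of the 9. Adora2a was at 25.9, 24.5, 22.6 and 23.3 CPM in B6N and at 29.2, 33.9, 22.4 and 29.7 CPM in transgenic mice. Mouse 3 was below every B6N mouse and the other 3 were above every B6N mouse. Each mouse was left out in turn, and the fit without mouse 3 is singled out after its values were seen. In it 6 of the 9 rose, Drd2, Adora2a, Rgs9, Pde10a, Gng7 and Adcy5, where 117 of all genes were called beside 92 with it, and in the other 7 such fits none of the 9 was called. The 6 had log2 fold changes of 0.24 to 0.39 and adjusted p of 0.00197 to 0.0398 in edgeR. Side by side, B6J minus B6N and transgenic minus B6N were 0.31 and 0.12 for Drd1, 0.48 and 0.29 for Drd2, 0.16 and 0.26 for Adora2a, and 0.3 and 0.04 for Rarb. Of 8 direct pathway genes 1 rose in transgenic over B6N mice, Pdyn, by 1.24-fold (0.31 ± 0.06, adjusted p = 0.0167 by edgeR).

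Complete loss of n-Tr20 in B6N mice moved none of the 9 genes past the test, where 1.91% of all genes were called. None of the 9 had an unadjusted p under 0.05 in edgeR, and DESeq2 called none. Drd1 was at 50.6, 44.9, 49.9 and 45.4 CPM in B6N knockout mice, overlapping B6N, with a log2 fold change of 0.14 ± 0.07 (adjusted p = 0.398 by edgeR). Ppp1r1b was at 144, 145, 129 and 139 CPM in B6N and at 123, 123, 130 and 132 CPM in knockout mice, with -0.14 ± 0.08 (adjusted p = 0.544 by edgeR). In a fit of those 8 libraries alone this value had an SE of 0.04 and passed (adjusted p = 0.0479 by edgeR), where 702 of all genes were called beside 481. The other 7 lay between -0.06 and 0.13. Of the lists, Tac1 rose 1.18-fold in knockout mice, and Kcnip2, a potassium channel partner of projection neurons, Gad1, the enzyme that makes GABA, and Stra6, a retinol transporter, fell. The difference between the effects of the knockout in B6N and of the hypomorphic allele within B6J (B6J minus transgenic) was called for none of the 9, where 0.0596% of all genes were called.

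B6J knockout mice had lower levels of most of the 9 genes than B6J mice, but batch and genotype were told apart only by the pair of libraries of transgenic mouse 4. Adora2a was at 22.1, 16.5, 21.5 and 18.4 CPM in B6J knockout mice and at 25.4, 26.7, 26.0 and 29.0 CPM in B6J mice, without overlap. Drd2, at 18.6, 14.8, 18.3 and 16.5 CPM, was also below every B6J mouse. In all, 7 of the 9 genes did not overlap, beside 8.69% of all genes that were lower without overlap. In the pair of libraries of transgenic mouse 4, the batch 2 library was lower by 0.3 on the log2 scale in Adora2a (24.2 beside 29.7 CPM), 0.29 in Ppp1r1b, 0.24 in Adcy5, 0.19 in Gng7 and 0.15 in Rgs9. Drd2 and Pde10a were within 0.02, and Rarb was higher by 0.23. Over 13235 genes the median difference of the pair was -0.02, and 20.1% of them were lower by more than 0.2.

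With the batch in the fit, B6J knockout minus B6J was negative for all 9 genes and called for none, where 0.106% of all genes were called. An unadjusted p under 0.05 in edgeR was found for 1 of the 9, beside 2043 of 25481 genes, and DESeq2 called none of the 9. Rarb had the largest value, -0.49 ± 0.17 (adjusted p = 0.36 by edgeR), with unadjusted means of 13.8 and 16.5 CPM. Drd2 was at -0.37 ± 0.22, and Ppp1r1b at -0.02 ± 0.18. Against transgenic mice none of the 9 was called, where 0.738% of all genes were, and none had an unadjusted p under 0.05 in edgeR or a call by DESeq2. Choroid plexus markers were at 397 to 564 CPM in sum in B6J knockout mice and at 17.1 to 69 CPM in transgenic mice, and 3 of the 4 B6J knockout mice were female. The part of both in these values was not tested.

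The ratio of Drd1 to Drd2 within a library compares direct with indirect pathway receptors free of scaling. In log2 it was 1.43 ± 0.1 (SD, n = 4) in B6N, 1.43 ± 0.09 in B6N knockout, 1.25 ± 0.13 in B6J, 1.26 ± 0.18 in transgenic and 1.54 ± 0.1 in B6J knockout mice, the last in batch 2. None of the 4 batch 1 comparisons passed an exact permutation test, two-sided, whose smallest p is 0.0286. After adjustment over 4 comparisons, 1 comparison at that smallest p cannot pass alone. The test thus could not call a single difference, for this ratio or for the one with Adora2a. B6J minus B6N was nearest, at -0.17 ± 0.08 (exact p = 0.0857, adjusted p = 0.343 over 4 comparisons). The 4 B6J mice were at 1.25, 1.35, 1.34 and 1.07, and the 4 B6N mice at 1.38, 1.33, 1.43 and 1.57. Taken against Adora2a in place of Drd2, the log2 ratio of Drd1 was 0.85 ± 0.05 in B6N, 1.04 ± 0.07 in B6N knockout and 1.0 ± 0.13 in B6J. It was 0.72 ± 0.17 in transgenic mice and 1.34 ± 0.09 in B6J knockout mice, the last in batch 2. This ratio was not stable between libraries of 1 mouse: transgenic mouse 4 had 0.82 in its first library and 1.2 in its repeat. The B6N knockout lay 0.2 above B6N (adjusted p = 0.0762 by the exact permutation test), with all 4 knockout mice above all 4 B6N mice, and B6J lay 0.29 above transgenic mice (adjusted p = 0.0762 by the same exact test).

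In hippocampus, where the receptors are rare, ribosome footprints of several of the 9 genes changed with the loss of n-Tr20, and RNA of none passed the test. In RNA none of the 9 was called, where 0.0413% of all genes were. Of the 9, 1 (Rarb) had an unadjusted p under 0.05 in edgeR, beside 1536 of 19352 genes, and DESeq2 called none of the 9. Knockout RNA library 1 was female by Xist (1240 CPM) and Ddx3y, a Y-linked gene (0.336 CPM), and the other 5 RNA libraries were male (Xist at most 2.31 CPM, Ddx3y 45.9 to 56.2 CPM). Without that library none of the 9 was called in RNA or in translational efficiency either. In footprints Drd1, Rgs9 and Pde10a rose and Gng7 fell, 4 of 9 beside 5.35% of all genes tested (2.19% rose and 3.16% fell). DESeq2 also called 4 of the 9, and 1036 of all genes. Without overlap, 3 genes were higher and 1 lower, beside 12.9% and 13.7% of all genes.

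Among the receptors, Drd1 footprints were at 5.17, 5.11 and 2.58 CPM in the 3 B6N libraries and at 21.3, 8.95 and 13.8 CPM in the 3 knockout libraries. The groups did not overlap, and the rise was 3.52-fold (1.82 ± 0.34, adjusted p = 0.0183 by edgeR). Drd1 RNA was at 1.92, 4.29 and 3.55 CPM in B6N and at 2.54, 2.53 and 3.29 CPM in knockout, a log2 difference of -0.23 ± 0.28. Adora2a footprints were at 1.69, 0.43 and 0.18 CPM in B6N and at 2.82, 1.18 and 3.85 CPM in knockout. These overlap, and the 3.44-fold higher mean did not pass (1.78 ± 0.65, adjusted p = 0.132 by edgeR). Drd2 footprints differed by 0.1 ± 0.39, with 1.59 to 2.83 CPM in B6N and 2.01 to 3.03 CPM in knockout.

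Of the genes that shape the response to cAMP, Rgs9 footprints were at 8.55, 12.3 and 11.8 CPM in B6N and at 30.1, 16.3 and 20.3 CPM in knockout, a rise of 2.07-fold (1.05 ± 0.23, adjusted p = 0.0233 by edgeR). Pde10a footprints were at 36.4, 41.3 and 36.7 CPM in B6N and at 78.5, 50.3 and 53.4 CPM in knockout, a rise of 1.61-fold (0.68 ± 0.16, adjusted p = 0.0288 by edgeR). In both genes, as in Drd1, knockout library 1 was the highest and knockout library 2 the lowest of the 3 knockout libraries. Ppp1r1b followed the same order, at 82.0, 45.3 and 63.5 CPM, but library 2 lay within the B6N range of 43.2 to 51.8 CPM and the gene did not pass (0.45 ± 0.18, adjusted p = 0.184 by edgeR). Gng7 footprints went down, from 26.4, 44.9 and 54.4 CPM in B6N to 20.3, 18.8 and 21.2 CPM in knockout, a fall of 2.08-fold (-1.06 ± 0.22, adjusted p = 0.0275 by edgeR). Its RNA was at 183, 178 and 228 CPM in B6N and at 200, 221 and 205 CPM in knockout. Adcy5 footprints differed by 0.22 ± 0.15 and Rarb footprints by 0.37 ± 0.31, neither called.

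**Figure D5:**
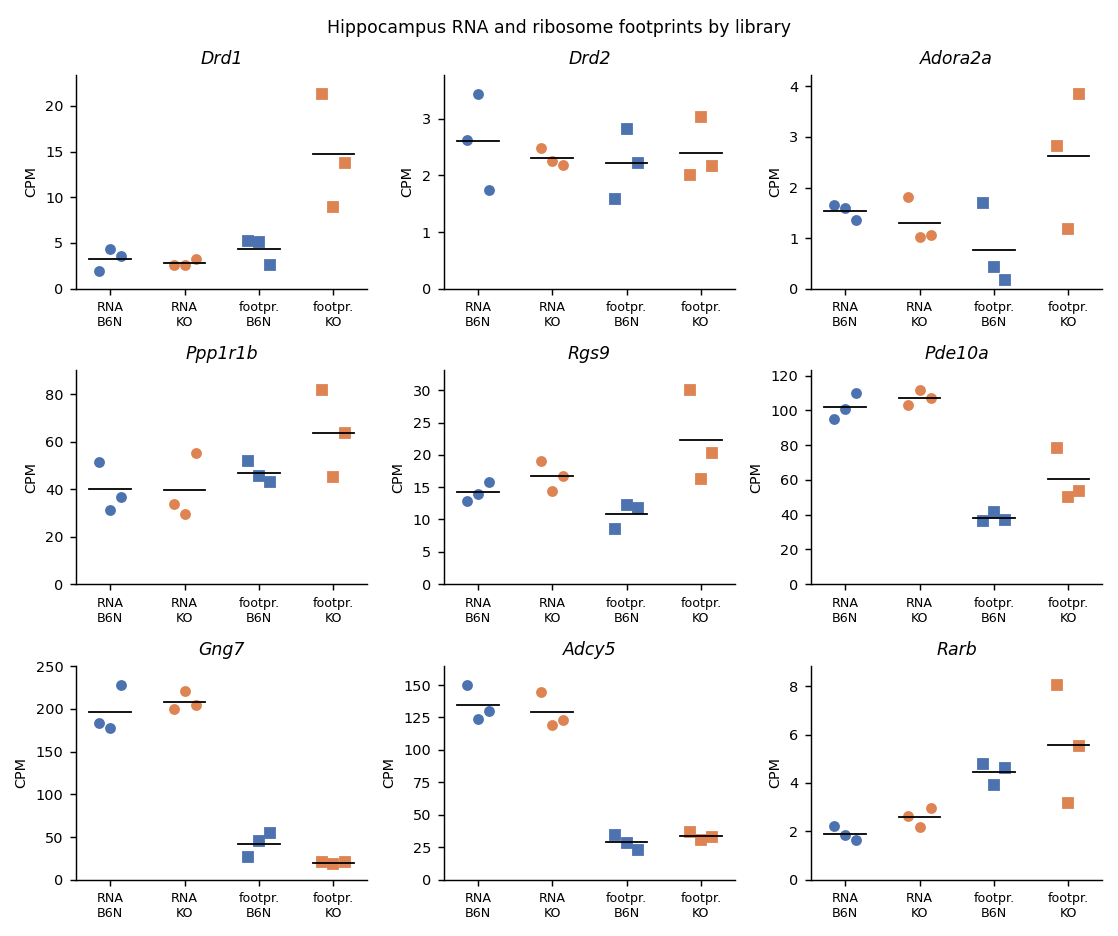
CPM of the 9 genes in hippocampus RNA (circles) and ribosome footprints (squares), in 3 B6N and 3 knockout (KO) libraries each, with means as black lines. Footprints of Drd1, Rgs9 and Pde10a lie higher in all 3 knockout libraries than in all 3 B6N libraries and those of Gng7 lie lower, while RNA of the same genes overlaps.

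Other striatal genes moved in the same libraries. Footprints of Gpr6 rose 3.28-fold in knockout hippocampus, those of Ebf1 2.85-fold, Tac1 2.74-fold and Penk 2.66-fold. These were 2 of the 7 direct pathway genes tested and 2 of the 4 indirect pathway genes. Among the 18 other projection neuron genes the median log2 fold change was 0.09, and Kcnip2 fell. In RNA, Penk differed by -0.45 ± 0.14 and Tac1 by 0.29 ± 0.25, neither called. The summed level of the 4 indirect pathway genes was 69.8 to 93.5 CPM in B6N footprints and 113 to 195 CPM in knockout footprints, and that of the 8 direct pathway genes 110 to 127 and 152 to 188 CPM. Footprints of interneuron genes Sst and Pvalb, cortical and hippocampal neuron genes Neurod2, Slc17a7 and Prox1, myelin genes Mbp and Mobp and microglia genes C1qa and Cx3cr1 fell in the same comparison, 2 of 6 interneuron, 2 of 9 cortical, 1 of 7 hippocampus, 2 of 7 oligodendrocyte and 2 of 5 microglia genes. Markers of other cells were higher, with none called: all 7 choroid plexus genes (median log2 fold change 0.53) and all 5 meninges genes (0.22). The summed level of the 4 cholinergic genes was 1.96 to 2.49 CPM in B6N and 3.49 to 7.08 CPM in knockout footprints, without overlap, and 1 of them was tested. Whether the libraries differ in tissue taken was not tested, and footprints and RNA may come from different mice. Among the footprint libraries, knockout library 1 also had the lowest Ddx3y, 45.5 CPM beside 67.1 to 107 CPM. In the RNA library of the same number, female as given above, Ddx3y was at 0.336 CPM. The sex behind footprint knockout library 1 was not tested. That footprint library had the highest score for the 9 genes, 0.51, beside 0.27 and -0.09 in the other 2 knockout libraries and -0.32 to -0.16 in B6N.

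The calls in footprints rested on few libraries. Without B6N library 2 or without B6N library 3, none of the 9 was called. Without knockout library 1, 1 remained, Drd1, and without knockout library 2, 2 remained. Of all genes, the 6 fits that left out 1 library called from 32 (without B6N library 3) to 916 (without B6N library 1), beside 708 with every library. The values kept their direction in all 6 such fits. Over those fits the log2 fold change was 1.42 to 2.06 for Drd1, 0.75 to 1.22 for Rgs9, 0.44 to 0.8 for Pde10a and -1.3 to -0.82 for Gng7, with the lowest values of Drd1, Rgs9 and Pde10a in the fit without knockout library 1.

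The ratio of footprints to RNA, translational efficiency, compares the 2 assays per gene. In B6N, footprint CPM over RNA CPM was 1.32 for Drd1, 0.767 for Rgs9, 0.375 for Pde10a and 0.213 for Gng7, and in knockout 5.28, 1.33, 0.567 and 0.0962. The median over 11374 genes was 0.897 in B6N and 0.909 in knockout. As the interaction of assay and genotype, edgeR called none of 15202 genes (2251 had an unadjusted p under 0.05), and so none of the 9. The values were 2.02 ± 0.5 for Drd1 (adjusted p = 0.103 by edgeR), -1.18 ± 0.28 for Gng7 (adjusted p = 0.105), 1.99 ± 0.75 for Adora2a, 0.79 ± 0.28 for Rgs9 and 0.58 ± 0.19 for Pde10a. An unadjusted p under 0.05 was reached by 5 of the 9. DESeq2 called 492 genes, among them Drd1 (adjusted p = 0.00951) and Gng7 (adjusted p = 0.00321).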

How the data were processed

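RNA of 21 forebrain libraries and RNA and ribosome footprints of 12 hippocampus libraries were analysed from deposited tables. Forebrain values are estimated counts per transcript with TPM, deposited by the authors in the layout that kallisto writes, and not whole numbers. Hippocampus values are whole counts per gene, deposited by the authors without normalization. Tools in the submitters' processing notes are Bowtie2 2.2.3, HISAT2 2.1.0, kallisto 0.42.4 and featureCounts, with build mm10 and no roles. Per the labels, hippocampus RNA was selected by poly(A) and forebrain RNA by removal of ribosomal RNA, so levels in the 2 tissues also differ by kit.

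Estimated counts were summed per gene identifier and rounded. Comparisons used edgeR 4.0.16 in R 4.3.3 (quasi-likelihood F test, TMM, filterByExpr with a minimum count of 10, robust, two-sided), with p-values adjusted by Benjamini-Hochberg over every gene tested, and a gene was called at an adjusted p under 0.05. All 9 genes passed the filter in every comparison. The 16 batch 1 forebrain libraries shared 1 fit. B6J knockout libraries were tested in a fit of all 21 in which transgenic mouse 4 set the batch difference. SE is given for log2 fold changes and SD for ratios. Correlations used log2(CPM + 1) minus the group mean and 100000 permutations within groups (numpy 2.4.6). Common biological coefficients of variation were 7% (batch 1), 7.9% (all forebrain), 14% (hippocampus RNA) and 12.9% (footprints). Libraries of a group differed by more than counting error (lowest chi-square over degrees of freedom 2.73 in 46 pairs). Nothing in the labels says that samples came from separate mice beyond their numbers, so p-values measure the spread between these samples.

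The 9 genes, the 18 lists of 139 other genes and the tests were chosen with earlier results of these data known. Named genes are the 9, the 10 genes most like them by Pearson r, and list genes that were called or, in some lists, lead by level. Fits and correlations were tested on simulated data. Alternatives were DESeq2 1.42.0, other size factors, no filter, no robust step, a transcript length offset, the 2 groups alone, replicate numbers as a block, other ratios and scales, and leaving out each library. Results of 1 gene that the naming rule and the lists cover are not reported here.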

Additional observations from a re-analysis of the deposited data

Results flagged for a closer look

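In 3 of 45 groups of 4 forebrain mice, 1 mouse stood apart from the others of its group in 1 of the 9 genes by Dixon's test, which chance alone does in about 1 of 20 groups. Rgs9 was at 46.2 CPM in B6J knockout mouse 2, beside 62.7, 63.0 and 65.7 CPM in the other 3. All 9 genes were below their group mean in that mouse. Gng7 was at 67.6 CPM in B6N mouse 3, beside 72.9, 73.2 and 73.8 CPM, and all 9 genes were below their group mean in that mouse as well. Gng7 was at 75.0 CPM in B6N knockout mouse 3, beside 69.2, 69.4 and 69.6 CPM, and all 9 genes were above their group mean there.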

How the results depend on the processing

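The number of the 9 genes called was the same as reported under DESeq2's size factors and under no filter on low counts in every comparison, and other settings moved it in some. In B6J minus B6N it was 4 without the robust step, where 381 of all genes were called, and 2 with the length offset, beside 3. A fit of the 2 groups alone called 1 of the 9 in B6N knockout minus B6N (702 of all genes beside 481) and 8 in B6J minus B6N (990 beside 434). DESeq2 called 5 in B6J minus B6N and 2 in translational efficiency. Replicate numbers did not pair the samples (correlations of same-numbered deviations ran from -0.37 to 0.16 over the comparisons). With the replicate numbers as a block 7 of the 9 were called in B6J minus B6N, where the block fit called 975 genes beside 434, and the block moved no other count of the 9. Leaving out 1 library gave 0 to 3 of the 9 in B6J minus B6N, 0 to 6 in transgenic minus B6N, 0 to 4 in footprints and 0 to 2 in translational efficiency, and 0 in the other comparisons. Of all genes, these fits called 216 to 426 in B6J minus B6N and 53 to 176 in transgenic minus B6N. In footprints they called 32 to 916, and in translational efficiency 0 to 301. Such fits ended the call of Drd1 in 4 of 8, Drd2 in 3 and Rarb in 6 of B6J minus B6N, and of Drd1 in 2 of 6, Rgs9 in 3, Pde10a in 5 and Gng7 in 5 of footprints. Of the 36 correlated pairs, 28 to 35 passed without 1 mouse, 29 within the 16 batch 1 mice, and 17 without transgenic mouse 3 and B6J knockout mouse 2. Over all genes, the length offset called 174 genes beside 481 in B6N knockout minus B6N, 143 beside 434 in B6J minus B6N, 6 beside 63 in B6J minus transgenic, 55 beside 92 in transgenic minus B6N, 67 beside 188 in B6J knockout minus transgenic and 12 beside 27 in B6J knockout minus B6J. DESeq2 called 169 genes in B6J minus transgenic, 482 in B6J knockout minus transgenic, 147 in B6J knockout minus B6J, 132 beside 8 in hippocampus RNA and 492 beside 0 in translational efficiency. No filter on low counts gave 106 beside 63 in B6J minus transgenic, 135 beside 8 in hippocampus RNA and 38 beside 0 in translational efficiency. The 2 groups alone gave 990 genes in B6J minus B6N and 29 in B6J knockout minus transgenic. The cause of these changes was not tested. Transgenic mouse 4 could not be left out of the comparisons with B6J knockout mice, since it alone links the batches. With 4 or 3 libraries per group, and Adora2a and Drd2 at 0.18 to 3.85 CPM in footprints, small changes of rare genes were not detectable.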

Other observations

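Markers of other cells of the forebrain were set against the mean of the 9 genes as a description. Over 20 forebrain mice, the r of deviations from the group mean of single genes with that mean ran from -0.1 to 0.37 for 6 interneuron genes, from -0.13 to 0.26 for 7 oligodendrocyte genes, from -0.37 to 0.17 for 4 astrocyte genes and from -0.03 to 0.47 for 5 microglia genes. The dopamine input had 2 genes of at least 5 CPM, the vesicular transporter gene Slc18a2 (-0.06) and the enzyme gene Ddc (-0.26), and the only cholinergic gene at that level had 0.28. The r ran from -0.48 to -0.05 for 4 meninges genes, from 0.07 to 0.18 for 3 choroid plexus genes and from -0.21 to 0.08 for 3 hippocampus genes. The 18 other projection neuron genes of the striatum had an r of at least 0.54. All genes of a mouse come from 1 library and share its depth and dissection, and the lists were not tested against each other.

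In the list of interneuron genes, 2 of 6 rose in transgenic mice over B6N mice. One of them, Gad1, makes the GABA-synthesising enzyme and is also expressed by projection neurons. Gad1 was at 198 CPM in B6N and 227 CPM in transgenic mice (a log2 fold change of 0.2 ± 0.04, SE) and the somatostatin gene Sst at 60.2 and 70.2 CPM (0.22 ± 0.05), with adjusted p = 0.0253 and 0.0372 by edgeR. Gad1 fell in B6N knockout mice, from 198 to 175 CPM (-0.18 ± 0.04, adjusted p = 0.0165 by edgeR). All 4 cholinergic genes were higher in B6J than in B6N, with a median of 0.24 and none called, and all 7 oligodendrocyte genes were higher, with a median of 0.1 and none called.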
